A study of Mus musculus with 12 samples.

Results

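The let-7 family of mature miRNAs was examined in murine serum, as the 5p strands of let-7a, let-7b, let-7c, let-7d, let-7e, let-7f, let-7g and let-7i together with miR-98-5p. The 9 members were chosen by their miRBase accessions and by no rule on their counts, though with earlier results of these data known. They were taken out of 874 mature miRNAs listed in at least 1 of the 12 mouse tables. All 9 were listed in each of the 12 libraries.

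Serum came from 3 female athymic, immunodeficient NCr nude mice (1046, 1047 and 1069), xenografted at 4 to 6 weeks of age. It was drawn before and 2 weeks after SH-SY5Y cells, an established human neuroblastoma line, had been placed beneath the renal capsule. RNA from 50 μl of each of the 6 sera was split into an aliquot left undepleted and an aliquot depleted of 5′ tRNA fragments with biotinylated DNA probes and streptavidin beads. This gave 4 groups of 3 libraries: undepleted before, undepleted after, depleted before and depleted after. No mice without xenograft were sampled at the later time, so tumour, implantation surgery, the earlier blood draw and elapsed time cannot be told apart. Mouse miRNA counts summed to between 21235 and 97183 in the undepleted and between 938706 and 2271549 in the depleted libraries, with the first serum of mouse 1069 lowest in both.

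Mature miRNAs guide Argonaute proteins to messenger RNAs, and pairing of the seed, bases 2 to 8, with the target is the main determinant of which messages are repressed. The let-7 family rises during differentiation, is held back in stem cells by LIN28, which blocks processing of its precursors, and represses growth-promoting messages such as those of RAS, MYC and HMGA2. In neuroblastoma the LIN28B and MYCN axis is a well-known route to low let-7 activity within tumour cells. In blood, let-7 miRNAs occur in red cells, platelets, leukocytes, vesicles and protein complexes, so their serum level has no single known source. In bulk serum, fewer releasing cells and less RNA released per cell cannot be told apart.

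All 9 members were matched by name to the RefSeq table of mouse miRNAs (GRCm38.p6). The mature sequences are shown because the members differ by very few bases, which decides how far their counts can be separated. The seed is in capitals.
let-7a-5p (MIMAT0000521): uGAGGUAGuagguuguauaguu
let-7b-5p (MIMAT0000522): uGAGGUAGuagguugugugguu
let-7c-5p (MIMAT0000523): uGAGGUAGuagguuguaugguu
let-7d-5p (MIMAT0000383): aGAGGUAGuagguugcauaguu
let-7e-5p (MIMAT0000524): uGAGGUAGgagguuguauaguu
let-7f-5p (MIMAT0000525): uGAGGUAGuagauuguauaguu
let-7g-5p (MIMAT0000121): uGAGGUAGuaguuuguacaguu
let-7i-5p (MIMAT0000122): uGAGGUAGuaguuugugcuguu
miR-98-5p (MIMAT0000545): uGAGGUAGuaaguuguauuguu

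All 9 sequences were 22 bases long and shared 1 seed, GAGGUAG, which the family label requires. Of 1679 mature mouse names in the table, 11 held this seed at bases 2 to 8, the others being let-7k and miR-1961. With positions counted from 1 at the 5′ end and the first-named member's base written first, let-7a and let-7c differed by A19G alone, let-7a and let-7f by G12A alone, and let-7a and let-7e by U9G alone. let-7b and let-7c differed by G17A alone, and let-7g and let-7i by A17G and A19U. Reads were kept from 15 bases upwards, and 4 of the 36 pairs of members shared at least their first 15 bases: let-7a with let-7b, let-7a with let-7c, let-7b with let-7c, and let-7g with let-7i. A read truncated at its 3′ end can thus match more than 1 of these members, and how such reads were assigned is not given in the sources used here. Counts of let-7a, let-7b and let-7c, and of let-7g and let-7i, are uncertain to that extent, whereas let-7f differs from every other member by base 12 at the latest.

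The 9 mature sequences come from 12 hairpins on 7 mouse chromosomes (GRCm38, positions from RefSeq, gene context from GENCODE M21). let-7a, let-7c and let-7f each have 2 hairpins that yield the identical mature strand, so their counts cannot be assigned to 1 locus. Mirlet7a-1 (chr13:48538179-48538272), Mirlet7f-1 (chr13:48537829-48537917) and Mirlet7d (chr13:48536012-48536114) lie on the minus strand in exons of the lincRNA 6720427I07Rik. Mirlet7c-2 (chr15:85706603-85706697) and Mirlet7b (chr15:85707319-85707403) lie on the plus strand in exons of the noncoding Lncppara. Mirlet7f-2 (chrX:151912346-151912428) and Mir98 (chrX:151913214-151913321) share an intron-borne position in Huwe1, on its strand. Mirlet7c-1 (chr16:77599657-77599750, plus strand) is intronic in the noncoding Mir99ahg and Mirlet7a-2 (chr9:41536716-41536811, plus strand) in the noncoding 3110039I08Rik. Mirlet7e (chr17:17830352-17830444, plus strand) is intronic in Spaca6, Mirlet7g (chr9:106178840-106178927, plus strand) is intronic in Wdr82, and Mirlet7i (chr10:122985640-122985724, minus strand) is exonic in the pseudogene D630033A02Rik.

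The family held a small and similar part of the serum miRNA counts in every group. Its 9 members together took 1.81% ± 0.16 (SD, n = 3) of the mouse miRNA counts in undepleted serum before injection and 1.65% ± 0.23 (SD, n = 3) after it. In depleted serum they took 2.00% ± 0.26 before and 1.798% ± 0.21 after (SD, n = 3 each). The ranges of the 4 groups overlapped. The lowest single share was 1.39% (95% Wilson interval 1.29% to 1.4965%) in undepleted serum of mouse 1069 after injection, and the highest 2.29% (2.26% to 2.32%) in depleted serum of the same mouse before it. These intervals cover counting error only, since PCR copies were not told from independent molecules.

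Within the family, let-7i led in both kinds of library. Levels are given in CPM, the count scaled to a total of 1000000 mouse miRNA counts per library, which for members of equal length needs no correction for length. The order of the members holds for each kind of library only, since ratios between members differed between the aliquots of the same serum. Whether the library preparation captured all members equally was not tested. In the 6 depleted libraries the mean level was 8359.95 CPM for let-7i, 5444 for let-7g, 1248 for let-7f, 1213 for let-7c, 1122 for let-7a, 645 for let-7d, 630.1 for let-7b, 262 for miR-98 and 42.6 for let-7e. let-7i stood above let-7g, let-7g above let-7f, let-7b above miR-98 and miR-98 above let-7e without overlap, whereas neighbours from let-7f down to let-7b overlapped.

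In the 6 undepleted libraries the order was let-7i (mean 6659.9 CPM), let-7c (3696), let-7g (3141), let-7f (1928), let-7a (669), let-7b (601), let-7d (386), miR-98 (111) and let-7e (80.0). let-7c and let-7g overlapped, as did let-7a with let-7b, let-7b with let-7d, and miR-98 with let-7e. The last pair rested on few reads, 1 to 19 for miR-98 and 2 to 8 for let-7e per undepleted library, against 296 to 513 and 39 to 93 in the depleted ones. The single miR-98 read of mouse 1069 after injection corresponded to 20.2 CPM with a 95% Wilson interval of 3.57 to 115.

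**Figure D1:**
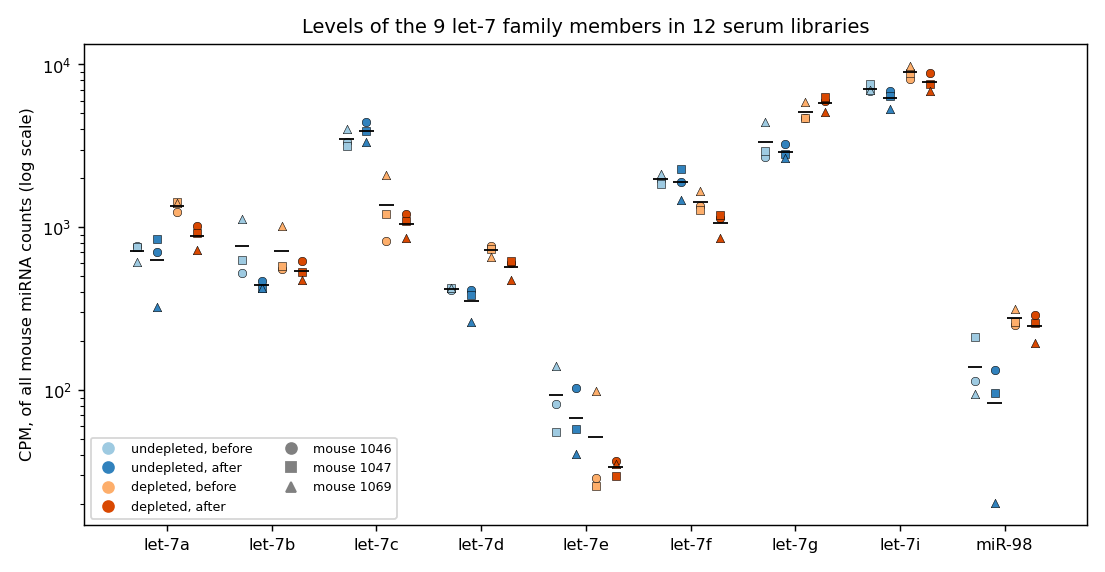
Level of each member in CPM, relative to all mouse miRNA counts (log axis), in the 12 libraries; each point is 1 library, colours give the group, symbols the mouse, and bars the group mean of 3. let-7c lies between 3156 and 4447 CPM in the undepleted and between 821 and 2086 CPM in the depleted libraries, whereas let-7g moves the other way.

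The aliquots of the same sera were compared to ask whether removal of 5′ tRNA fragments shifted the members' measured abundance. let-7c and let-7f were lower in the depleted aliquots and let-7g, miR-98, let-7d and let-7a higher. Values are normalised counts, scaled with DESeq2's median-of-ratios size factors over the 12 libraries. The main fit took these libraries as independent, although they were paired aliquots of 6 sera from 3 mice. Its p-values, however small, therefore do not have the mouse as the unit and do not measure the spread between mice. Calls required both an adjusted p (Benjamini-Hochberg) under 0.05 and at least a 2-fold difference. By that rule 1 of 9 members was called, let-7c, beside 8.36% of the 383 miRNAs tested. By the adjusted p-value alone it was 6 of 9, beside 14.4%. With the aliquots of a serum paired (replicate block) it was 8 of 9, beside 15.0% of 467 miRNAs tested, with let-7e and let-7i added. The groups did not overlap for 3 of 9 members (let-7c, let-7f and let-7g), beside 9.4% of the miRNAs tested. In CPM it was also 3 of 9, with let-7d in place of let-7f, beside 8.88%.

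let-7c, which differs from let-7a at base 19, carried the largest difference of the 9 members. Its normalised counts ran from 1034 over a median of 1111 to 1355 in the undepleted libraries, and from 248 over 307 to 522 in the depleted ones. Every depleted library was below every undepleted one, and the depleted aliquot was the lower one in 6 of 6 sera. The log2 fold change was −1.74 (SE 0.19, adjusted p = 3.21e-19, DESeq2).

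let-7f, 1 base from let-7a and unlike let-7c not open to the ambiguity of truncated reads, ran from 457 over 609 to 697 in the undepleted and from 249 over 370.1 to 433 in the depleted libraries. The groups did not overlap and the depleted aliquot was lower in 6 of 6 sera. Its log2 fold change was −0.77 (SE 0.13, adjusted p = 1.40e-07, DESeq2), short of 2-fold. In edgeR it was −0.50 with an adjusted p of 0.184, and with counts thinned to the smallest library the adjusted p was 0.0577. let-7e, the least abundant member, was lower in 6 of 6 depleted aliquots, with medians of 23.5 and 9.42 normalised counts and overlapping ranges. Its log2 fold change of −0.98 (SE 0.40) had an adjusted p of 0.0928 in DESeq2. Under the serum block its adjusted p was 0.0208 at a fitted −1.05, and let-7e was called. It was also called without mouse 1069 (−1.34, adjusted p = 0.00367, DESeq2). The adjusted p was 0.410 in edgeR, 0.151 with thinned counts and 0.889 without mouse 1046, where the fitted value was −0.62.

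let-7g, next to let-7i in abundance in the depleted libraries, was higher there. Its normalised counts ran from 827 over 951 to 1184 in the undepleted and from 1467 over 1534 to 1720.1 in the depleted libraries, again without overlap and in the same direction in 6 of 6 sera. The log2 fold change was 0.70 (SE 0.09, adjusted p = 6.45e-12, DESeq2).

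miR-98, which shares its Huwe1 position with let-7f-2, ran from 6.27 over 33.6 to 73.9 in the undepleted and from 56.0 over 77.3 to 88.3 in the depleted libraries. The groups overlapped, and the depleted aliquot was higher in 6 of 6 sera. Its log2 fold change was 0.95 (SE 0.27, adjusted p = 0.00495, DESeq2), and with TMM scaling it was 1.20 and past the 2-fold limit. let-7d had a log2 fold change of 0.59 (SE 0.19, adjusted p = 0.0130, 6 of 6 sera higher). let-7a had one of 0.56 (SE 0.20, adjusted p = 0.0327, 5 of 6 sera higher). The groups overlapped for both members. Without mouse 1046 the adjusted p rose to 0.497 for miR-98, 0.694 for let-7d and 0.713 for let-7a, and without mouse 1047 to 0.256 for let-7d and 0.158 for let-7a. With counts thinned to the smallest library, let-7d had a log2 fold change of 0.25 (adjusted p = 0.825, DESeq2) and miR-98 an adjusted p of 0.355.

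For the remaining members the difference was small. let-7i had a log2 fold change of 0.19 (SE 0.11, adjusted p = 0.279, DESeq2), with the depleted aliquot higher in 6 of 6 sera. Blocking on serum (replicate block) gave it an adjusted p of 0.00224, against 0.0120 with TMM factors and 0.00794 with library totals. let-7b had one of 0.02 (SE 0.17, adjusted p = 0.932), with 4 sera higher and 2 lower. The median over the 9 members was 0.19, against −0.04 over the miRNAs tested. TMM scaling moved the log2 fold changes of the 9 members upwards by 0.24 to 0.27 and scaling by library totals by 0.12 to 0.18. Neither turned the direction of a member, and with either let-7c was called in the lower and miR-98 in the higher direction.

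**Figure D2:**
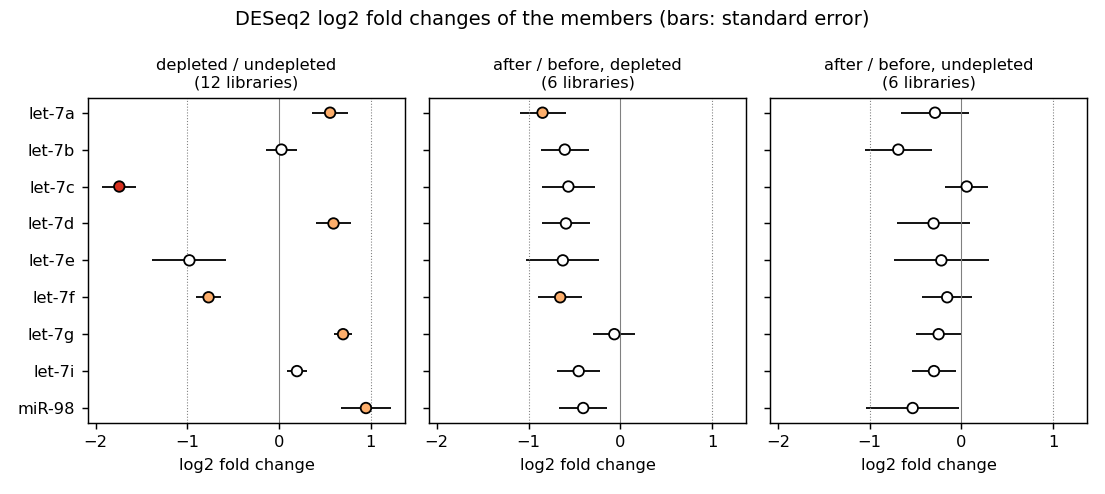
DESeq2 log2 fold change of each member (points) with its standard error (bars) for depletion over 12 libraries and for time point in 6 depleted and 6 undepleted libraries. Red points pass the adjusted p-value and the 2-fold limit (dotted lines), orange points the adjusted p-value alone, and open points neither; let-7c is the 1 red point, at −1.74.

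Ratios of raw counts between members of the same library do not depend on any scaling, and 7 were compared. The ratio of let-7c to let-7a ran from 4.18 over a median of 5.45 to 10.3 in the undepleted and from 0.658 over 1.18 to 1.48 in the depleted libraries. It fell in 6 of 6 sera, with a mean log2 change of −2.44 ± 0.42 (SD, n = 6; exact two-sided sign-flip permutation test, p = 0.03125, the smallest 6 sera allow). The ratio of let-7f to let-7a ran from 2.43 to 4.56 and from 0.905 to 1.30, a log2 change of −1.41 ± 0.31 with the same count of sera and the same p. Neither pair of ranges overlapped. Ratios to let-7a share its counts and are not separate results. let-7a was itself higher in the depleted aliquots (log2 fold change 0.56), so a fall in such a ratio also contains that rise. Its undepleted counts were 13 to 75 reads per library. The 6 sera came from 3 mice, each drawn before and after injection, and the test flips the sera as if independent. With the mouse as the unit, the smallest p of a sign-flip test would be 0.25.

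let-7c also fell relative to let-7b in 6 of 6 sera (mean log2 change −1.79 ± 0.61, SD), as did let-7e relative to let-7a (−1.73 ± 0.44), both at the smallest p. Mirlet7b lies beside Mirlet7c-2 on chromosome 15, but Mirlet7c-1 yields the same let-7c strand. The ratio of let-7g to let-7i rose in 5 of 6 sera (0.48 ± 0.33, exact permutation p = 0.0625) and that of let-7b to let-7a fell in 5 of 6 (−0.65 ± 0.59, p = 0.09375 in the same exact test). The ratio of let-7d to let-7a showed 3 sera up and 3 down (−0.03 ± 0.40, exact permutation p = 0.875). Mirlet7d shares a lincRNA on chromosome 13 with Mirlet7a-1, but Mirlet7a-2 yields the same let-7a strand. Adjusted over the 7 ratios by Benjamini-Hochberg, the 4 smallest exact p-values became 0.0547 each and missed the threshold, as 6 sera allow no smaller raw p.

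**Figure D3:**
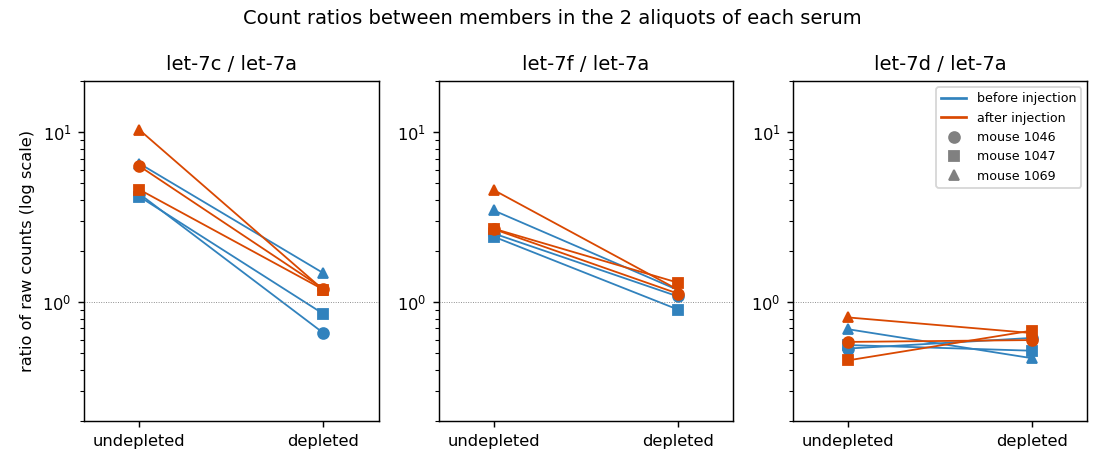
Ratio of raw counts of let-7c, let-7f and let-7d to let-7a (log axis) in the undepleted and depleted aliquot of each of the 6 sera; lines join the aliquots, colours give the time point and symbols the mouse. The first 2 ratios fall along every line and the third does not.

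Depletion raised the raw count of all members, since the depleted libraries held 13.9 to 45.9 times as many mouse miRNA counts (median 29.8). let-7g rose by a factor of 23.8 to 88.0 (median 53.3) and let-7i by 16.6 to 62.6 (median 36.6). let-7c rose by a factor of 3.41 to 23.0 (median 8.57), below the factor of the total in each serum, and let-7f by 9.57 to 34.6 (median 16.6). let-7c thereby went from 18.0% to 24.3% of the family's counts in undepleted libraries to 4.60% to 9.10% in depleted ones.

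**Figure D4:**
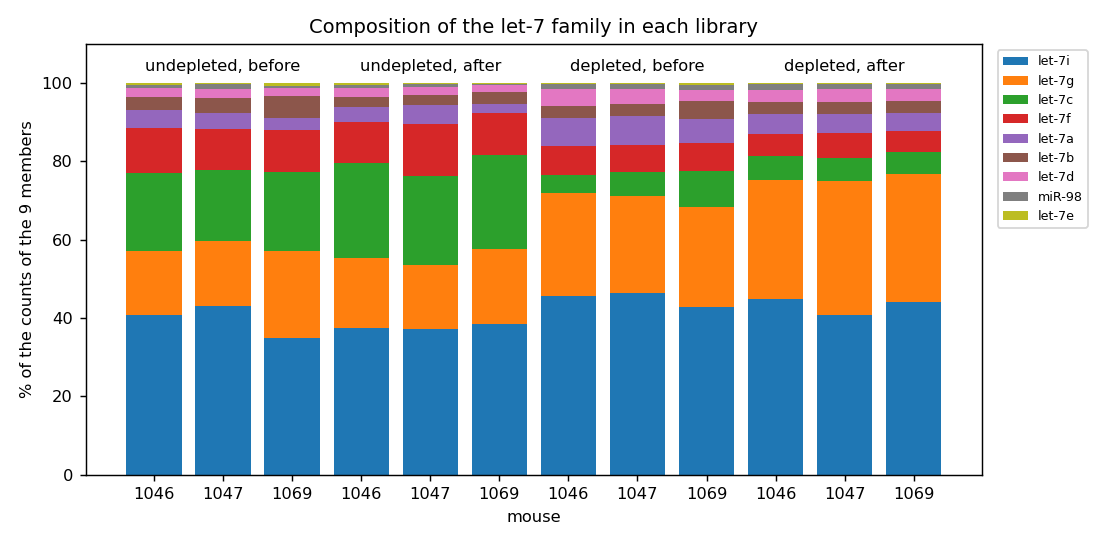
Share of each member in the counts of the 9 members (stacked bars, percent) in the 12 libraries, ordered by group and mouse. let-7c takes at least 18.0% in every undepleted and at most 9.10% in every depleted library, and let-7g at least 24.6% in every depleted and at most 22.3% in every undepleted one.

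The sera before and after injection were compared within each kind of library to ask how the members differed between the time points. In depleted serum the normalised counts of all 9 members were lower on average after injection, but none was called at the adjusted p-value and 2-fold limit (0 of 9, beside 10.6% of 310 miRNAs tested), and 5 had an unadjusted p under 0.05, beside 28.1% of the miRNAs tested. By the adjusted p-value alone 2 of 9 passed, let-7a and let-7f, beside 16.8%. edgeR with TMM called 0 of 9 as well. The normalised counts of the 2 time points did not overlap for 6 of 9 members, beside 38.1% of the miRNAs tested. In CPM it was 3 of 9 (let-7a, let-7d and let-7f), beside 39.4%, while let-7b, let-7i and miR-98 overlapped and were higher later in mouse 1046.

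let-7a had 2249.7, 2846 and 2108 normalised counts in mice 1046, 1047 and 1069 before injection and 1448, 1323 and 1085 after it. All 3 later values lay below all 3 earlier ones. The log2 fold change was −0.85 (SE 0.25, adjusted p = 0.00704, DESeq2). Its adjusted p was 0.0573 in edgeR, 0.0630 without mouse 1046 and 0.271 without mouse 1047. In DESeq2 it was 0.0197 with TMM factors, 0.0221 with the mouse as a replicate block and 0.0114 with thinned counts. With a filter of 4 counts in 3 libraries DESeq2 gave 0.00391, without the prior 0.00757 and without mouse 1069 3.69e-05. Scaled by library totals, the log2 fold change was −0.59 with an adjusted p of 0.0550.

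let-7f had 2432, 2575 and 2486 normalised counts in the same mice before injection and 1626, 1723 and 1286 after it. The time points did not overlap, and the log2 fold change was −0.66 (SE 0.24, adjusted p = 0.0408, DESeq2). Its adjusted p was 0.257 in edgeR, 0.0680 with TMM factors, 0.108 with the mouse as a replicate block, 0.186 without mouse 1046 and 0.280 without mouse 1047. In DESeq2 it was 0.0332 with thinned counts, 0.0214 with a filter of 4 counts in 3 libraries, 0.0444 without the prior and 0.00467 without mouse 1069. Scaled by library totals, the log2 fold change was −0.41 with an adjusted p of 0.269.

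let-7i, the most abundant member, had 14743, 17781 and 14678 normalised counts before and 12662, 10857 and 10346 after injection. The values did not overlap, with a log2 fold change of −0.45 (SE 0.24, adjusted p = 0.183, DESeq2). Without mouse 1069 the adjusted p of let-7i was 0.0288 and that of let-7d 0.00141. let-7c had 1481, 2426 and 3122 before and 1735, 1568 and 1282 after, and thus rose in mouse 1046 and was lower later in the other 2 mice. Its log2 fold change was −0.57 (SE 0.29, adjusted p = 0.176, DESeq2), and −0.22 without mouse 1069.

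let-7g had 8416, 9401 and 8774 normalised counts before and 8577, 9129 and 7649 after injection, which overlapped. Its log2 fold change of −0.07 (SE 0.23, adjusted p = 0.881, DESeq2) was the smallest in size of the 9 and turned to 0.19 with library totals as size factors. The other members, let-7b, let-7d, let-7e and miR-98, had log2 fold changes between −0.63 and −0.40 and adjusted p-values between 0.101 and 0.281 in DESeq2. let-7e had 52.2, 51.7 and 148 normalised counts before and 52.2, 43.0 and 52.7 after injection, highest in the first serum of mouse 1069. Its log2 fold change of −0.63 became −0.087 with mouse 1069 left out at both time points. The median over the 9 members was −0.59, against −0.09 over the miRNAs tested, and −0.37 without mouse 1069. Library totals moved the members' log2 fold changes upwards by 0.16 to 0.27, which left 8 of 9 below 0 with a median of −0.35, and TMM moved them by 0.03 to 0.07.

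**Figure D5:**
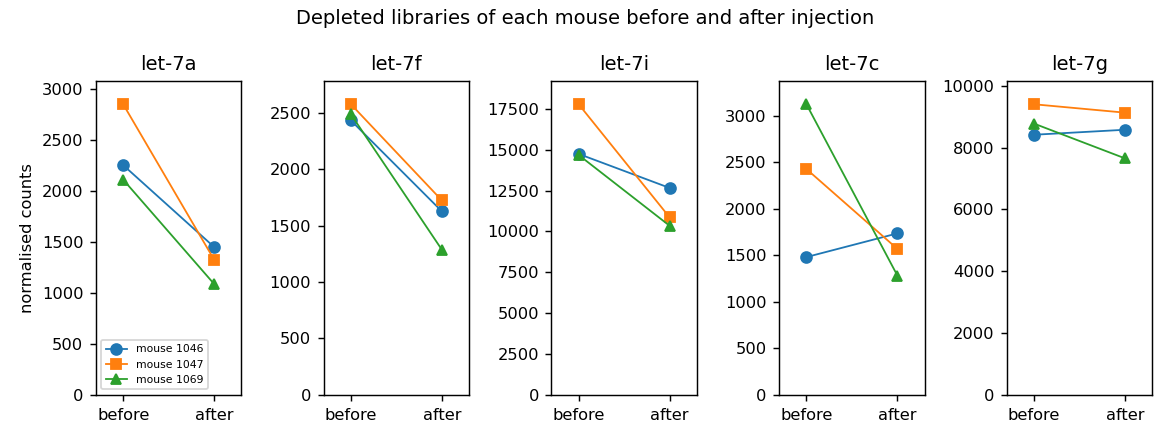
Normalised counts of let-7a, let-7f, let-7i, let-7c and let-7g in the depleted libraries of the 3 mice before and after injection, each axis starting at 0 with its own scale. The lines of let-7a, let-7f and let-7i go down in all 3 mice, whereas let-7c and let-7g go up in mouse 1046.

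Counted within the family, which needs no scaling, let-7g took 25.4% ± 0.78 of the members' counts in depleted serum before and 32.4% ± 1.95 after injection (SD, n = 3 each), higher in 3 of 3 mice and without overlap. let-7a went from 6.86% ± 0.66 to 4.91% ± 0.25 and let-7f from 7.18% ± 0.41 to 5.90% ± 0.50, both lower in 3 of 3 mice and without overlap. The other 6 members overlapped. These shares sum to 100% and are not independent, and with 3 libraries against 3 an exact permutation test cannot give a p below 0.1. In undepleted serum the share of let-7g was 18.4% ± 3.36 before and 17.8% ± 1.39 after. There let-7c, at 19.3% ± 1.21 and 23.6% ± 0.93, and let-7b, at 4.14% ± 1.36 and 2.69% ± 0.32, were the 2 members without overlap. Shares within the family have no counterpart over all miRNAs. In CPM, the time points did not overlap for 39.4% of the miRNAs tested in depleted and 45.4% in undepleted serum.

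In undepleted serum 7 of 9 members received an adjusted p-value, and 0 of 7 were called, beside 11.1% of 108 miRNAs tested. By the adjusted p-value alone it was also 0 of 7, beside 19.4%, and no member had an unadjusted p under 0.05. The time points did not overlap for 1 of 7, let-7b, beside 39.8%, and in CPM for 2 of 7, let-7b and let-7d, beside 45.4%. let-7b had 31.8, 40.9 and 55.3 normalised counts in mice 1046, 1047 and 1069 before injection and 25.2, 22.8 and 22.9 after it, with a log2 fold change of −0.69 (SE 0.36, adjusted p = 0.158, DESeq2).

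let-7a had 46.7, 48.8 and 30.0 normalised counts before and 37.8, 45.7 and 17.4 after injection in these libraries. The ranges overlapped, although each mouse was lower later, and the log2 fold change was −0.29 (SE 0.38, adjusted p = 0.648, DESeq2). let-7c had 203, 204 and 196 before and 239, 209.7 and 179.6 after, with a log2 fold change of 0.06 (SE 0.24, adjusted p = 0.908, DESeq2). The median over the 9 members was −0.29 (−0.17 without mouse 1069), against −0.06 over the miRNAs tested, with standard errors of the members between 0.24 and 0.51.

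Whether the difference between time points itself differed between depleted and undepleted aliquots was tested as an interaction over the 12 libraries. None of 874 miRNAs was called in DESeq2, where 3 had an unadjusted p under 0.05, nor in edgeR, where 11 had, and no member was among either. For let-7c the interaction was −0.58 (95% interval −1.27 to 0.10), for let-7f −0.43 (−0.92 to 0.05), for let-7a −0.45 (−1.23 to 0.32) and for let-7g 0.26 (−0.12 to 0.63) on the log2 scale. These intervals span differences from none to over 2-fold for let-7c and let-7a, so the comparison does not show that the aliquots responded alike.

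miR-16-5p (MIMAT0000527), an erythrocyte-rich miRNA that moves with haemolysis, was lower after injection. In CPM it stood at 125973, 125281 and 108496 in the depleted libraries of mice 1046, 1047 and 1069 before injection and at 77115, 67268 and 56241 after it. Its log2 fold change was −1.07 in depleted (adjusted p = 0.000882) and −0.95 in undepleted serum (adjusted p = 0.000907), and −0.56 for depletion (adjusted p = 0.00525), all in DESeq2. No other red cell marker could be matched to an accession, so these values rest on a single miRNA. The paper cites miR-16 as abundant and stable in the serum of mice. The authors measured free haemoglobin in all sera, but those values were not used here. The part of red cell RNA in the members' values was not tested.

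The xenograft is human, and the members' counts in the mouse tables were set beside the human tables of the same libraries. The human-table entry with the nearest counts was identical to the mouse entry in all 12 libraries for 8 of 9 members, among them 83545 summed counts for let-7i and 54792 for let-7g. For let-7c the nearest human-table entry was lower by 22 of 12636 counts (0.174%), lower in 7 libraries and identical in 5. The next nearest human-table entry differed by at least 9.35% for every member. The same reads were thus counted for both species, also in the sera drawn before injection, when no xenograft was present. For the sera drawn after injection, mouse and xenograft as the source of these reads cannot be told apart.

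Across the 6 depleted libraries the members most alike in CPM were let-7b with let-7c (Pearson r = 0.93), let-7i with miR-98 (r = 0.90), let-7b with let-7e (r = 0.90) and let-7a with let-7f (r = 0.89), while let-7g gave r between −0.33 and 0.47 with the others. Outside the family, the miRNAs most like the summed members among 102 with at least 4 counts in all libraries were MIMAT0000133 (r = 0.92) and MIMAT0000238 (r = 0.91), for which the sources used here give no name. These values describe 6 libraries of 3 mice, and let-7b, let-7c and let-7e stood apart in the first serum of mouse 1069 among them.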

How the data were processed

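Counts per mature miRNA, not normalised, were deposited by the authors as 1 mouse and 1 human table per library. The authors had trimmed adaptors with Cutadapt 1.8.1, discarded reads under 15 bases, filtered on quality with the FASTX-Toolkit, mapped with Bowtie 1.1.2 without mismatches and assigned reads by miRBase coordinates on GRCm38 or GRCh37. A miRNA not listed in a library was taken as 0. Total mouse miRNA counts were 21235 to 97183 (undepleted) and 938706 to 2271549 (depleted), so the undepleted values are the less precise.

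Counts were tested with DESeq2 1.42.0 (R 4.3.3, Wald test, zero-centred prior on fold changes), the tool of the study, over all listed miRNAs. The time points were fitted separately in depleted and undepleted libraries, depletion over 12 libraries with time point as covariate, and the interaction over 12 libraries without the prior. Alternatives were edgeR 4.0.16 (quasi-likelihood, TMM), TMM or library totals as size factors, a filter of 4 counts in 3 libraries, no prior, the adjusted p alone, a replicate block, thinned counts and leaving out each mouse. Library totals, overlap in CPM and the adjusted p alone under the block were added after the data had been seen. The scripts were tested on simulated data.

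The mouse numbers in the labels pair the libraries, as aliquots of the same serum (deviations correlated at r = 0.43 to 0.62) or sera of the same animal (r = −0.42 to 0.10). Ratios were compared with an exact sign-flip permutation test (NumPy 2.4.6), and Wilson intervals were computed with SciPy 1.17.1.

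The members and lists were chosen with earlier results of these data known. The miRNAs given in the text, by rule, were the 9 members and the non-members most correlated with their sum, the latter by accession only. Lists of 3p strands, of the neighbouring miR-99, miR-100 and miR-125 and of cell type markers could not be matched to accessions and were not used here, apart from miR-16-5p. The human-table entries were matched by their counts. Probe sequences of the depletion were not analysed here.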

Additional observations from a re-analysis of the deposited data

Results flagged for a closer look

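Dixon's test at 95% was applied to each member's CPM in the 6 depleted and the 6 undepleted libraries, 18 sets in all, of which chance marks about 1 in 20. It marked 6 values, all from mouse 1069 and 5 of them from its first serum. In the depleted library of that serum let-7b stood at 1023 CPM, let-7c at 2086 and let-7e at 99.1, each above the other 5 depleted libraries. In its undepleted library let-7b stood at 1130 CPM and let-7g at 4427, each the highest of 6. In the undepleted library of the later serum let-7d was lowest, at 263 CPM, from 13 reads. let-7b thus stood apart in both aliquots of the first serum, on 24 reads in the undepleted and 960 in the depleted one.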

How the results depend on the processing

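For depletion, 1 member was called in the main analysis (let-7c), and let-7c was also called under every alternative run. The number of members called was 2 with edgeR, 2 with TMM factors, 2 with library totals as size factors (each time with miR-98), 2 with the replicate block (with let-7e) and 6 by the adjusted p-value alone. Leaving out 1 mouse gave 1 to 2, with miR-98 added without mouse 1047 (log2 fold change 1.24) and let-7e without mouse 1069 (−1.34). TMM factors changed the split of all called miRNAs from 19 higher and 13 lower to 32 and 10. For the time points in depleted serum the count was 0, and 2 by the adjusted p-value alone. The range without 1 mouse was 0 to 0 there and in undepleted serum. The replicate block changed no 2-fold call of a member in either time comparison. Called miRNAs in the whole table numbered 33, 12 and 32 (depleted, undepleted, depletion), 52, 21 and 55 by the adjusted p-value alone, 11 and 1 without mouse 1047 in the time comparisons, 19 and 7 without mouse 1069, and 19 without mouse 1046 or 17 with thinned counts for depletion. With library totals the called miRNAs in depleted serum went from 15 higher and 18 lower to 32 and 5.

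Leaving out 1 mouse turned the direction of let-7g in depleted serum (range −0.093 to 0.00062, turned without mouse 1069), of let-7c (−0.0076 to 0.12, without mouse 1046) and let-7e (−0.32 to 0.0045, without mouse 1069) in undepleted serum, and of let-7b in depletion (−0.056 to 0.071, without mouse 1046). let-7g in depleted serum also turned with library totals (0.19) and let-7b in depletion with the replicate block (−0.0089). The cause was not tested. Without the most abundant miRNA (12.9% to 15.2% of counts) the family share was 2.09%, 1.91%, 2.31% and 2.11% in undepleted serum before and after and depleted serum before and after injection. Depth limits miR-98 and let-7e most, with fewer than 20 reads per undepleted library. It also limits let-7d (9 to 40 reads), let-7a (13 to 75) and let-7b (21 to 57) there.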
